A study of Mus musculus with 18 samples.

Results

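Chromatin accessibility at the locus of Cd69 was examined in bone marrow-derived macrophages (BMDMs), as 29 ATAC-seq peaks out of the 194284 peaks in the deposited union table. In ATAC-seq a transposase cuts and tags open DNA, so that the reads over a peak measure how accessible it is. The members were all peaks that overlap the Cd69 gene body or the 50 kb on either side of it (chromosome 6, build mm9, GENCODE M1 gene models). The gene was picked for its fall in accessibility with IL-10 under LPS. The comparison of LPS + IL-10 with LPS is therefore described without a test, and every other comparison that uses the LPS or the LPS + IL-10 libraries uses libraries that entered this choice.

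All cells came from 3 male, 12-week-old Il10-/- mice on the C57BL/6J background, so that every group, controls included, made no IL-10 of its own. Bone marrow was cultured for 6 days in medium with 10% L929 conditioned medium, and there were 6 conditions with 3 matched libraries each, numbered as replicates 1 to 3. The labels do not name the mouse of a library. The conditions were untreated, unstimulated cells, 500 nM (+)-JQ1 alone, 10 ng/mL IL-10 alone, 50 ng/mL LPS, LPS + (+)-JQ1 and LPS + IL-10. The treatment came 12 hours before LPS, LPS was present for 4 hours, and all cells were collected at 16 hours. The authors' methods name a vehicle among the pretreatments before LPS, and untreated, unstimulated cells as a further control. The sample titles name no vehicle, and its part in comparisons with unstimulated cells was not tested. Wild-type cells were not part of the accessibility data used here, and the response of macrophages that make IL-10 cannot be read from them.

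CD69 is a C-type lectin-like membrane receptor that appears early on activated lymphocytes and also on activated myeloid cells. It binds the sphingosine 1-phosphate receptor S1PR1, which lowers that receptor on the cell surface and holds cells in the tissue. The gene lies in the natural killer gene complex, among other genes of C-type lectin-like receptors. LPS, a part of the outer membrane of Gram-negative bacteria, activates macrophages through TLR4. IL-10 is an anti-inflammatory cytokine whose signal runs through STAT3. (+)-JQ1 binds the acetyl-lysine pocket of BET proteins and so displaces them from chromatin.

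Cd69 (ENSMUSG00000030156.3) spans chr6:129217342-129225387 on the minus strand, 8046 bp with 5 exons, so that higher coordinates are upstream of the gene. Peaks were numbered 1 to 29 along the chromosome. Peaks 1 to 10 lie over the long non-coding RNA gene 2310001H17Rik, 37.5 to 59.1 kb downstream of the Cd69 start when measured from peak centres, and peaks 11 to 18 lie between that gene and Cd69. Peak 19 (chr6:129214996-129217346) lies at the 3′ end of Cd69, where its edge just reaches the UTR in exon 5, peak 20 (chr6:129219384-129224092) covers introns and exons 2 to 4, and peak 21 (chr6:129225040-129227934) covers the start and exon 1. Peaks 22 to 27 are intergenic on the upstream side, and peaks 28 and 29 lie over the protein-coding gene 4922502D21Rik. The authors classed 4 of the 29 as promoter (peaks 7, 10, 21 and 29) and 25 as distal.

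Sequences are shown for the 3 places on which the results turn, namely the peak with the largest fall in LPS + IL-10, the promoter of Cd69 and the peak with the highest mean normalized count. Capitals mark exact matches, on either strand, to AP-1 (TGANTCA), NF-kappaB (GGG and CC with any 5 bases between), an interferon response element (GAAA, any 2 bases, GAAA), STAT (TTCNNNGAA), PU.1 (GAGGAA) or C/EBP (TTGCNNAA). These are the middle 300 bases of peaks 19 (chr6:129216021-129216320, plus strand) and 6 (chr6:129182803-129183102, plus strand) and the 250 bases before the annotated start of Cd69 (chr6:129225388-129225637, minus strand), each 5′ to 3′ from the mm9 genome.
Peak 19: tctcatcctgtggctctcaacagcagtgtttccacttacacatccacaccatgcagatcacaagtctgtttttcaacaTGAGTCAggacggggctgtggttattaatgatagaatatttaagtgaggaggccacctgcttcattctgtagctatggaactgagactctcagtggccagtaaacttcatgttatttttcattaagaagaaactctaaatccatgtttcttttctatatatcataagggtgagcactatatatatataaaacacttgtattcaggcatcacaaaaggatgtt
Cd69 upstream: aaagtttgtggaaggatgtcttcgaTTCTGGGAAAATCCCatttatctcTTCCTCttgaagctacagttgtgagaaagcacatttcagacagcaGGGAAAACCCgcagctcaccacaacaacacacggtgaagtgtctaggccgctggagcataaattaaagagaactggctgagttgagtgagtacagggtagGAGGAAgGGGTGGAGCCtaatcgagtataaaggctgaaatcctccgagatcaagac
Peak 6: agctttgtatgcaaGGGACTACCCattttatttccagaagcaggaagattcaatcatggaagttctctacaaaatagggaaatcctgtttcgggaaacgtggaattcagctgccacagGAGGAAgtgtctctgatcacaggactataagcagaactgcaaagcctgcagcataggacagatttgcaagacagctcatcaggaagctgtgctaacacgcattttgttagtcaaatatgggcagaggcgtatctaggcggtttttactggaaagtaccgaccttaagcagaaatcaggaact

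The stretch of peak 19 held 1 match, the AP-1 site at bases 79 to 85. AP-1 is the family of Fos and Jun dimers. An AP-1 match was found in the middle 300 bases of 2 of the 29 peaks, and in 12.1% of all 194284 peaks. The stretch upstream of Cd69 held 4 NF-kappaB matches, of which the ones at bases 30 to 39 and 31 to 40 overlap each other and the STAT match at bases 26 to 34. It also held 2 PU.1 matches, at bases 50 to 55 and 195 to 200. This stretch is not the middle of peak 21, the promoter peak. The middle 300 bases of peak 21, and those of peak 20, held 0 matches to any of the motifs. The middle of peak 6 held an NF-kappaB match at bases 15 to 24 and a PU.1 match at bases 119 to 124. NF-kappaB matches stood in the middle of 5 of the 29 peaks (32.8% of all peaks), STAT matches in 4 (8.74%), PU.1 matches in 13 (31.7%), C/EBP matches in 4 (12.5%) and interferon response elements in 0 (4.40%). A match is a description of the letters in a window and is not a measured binding site.

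Libraries held from 12020526 to 25908198 counted reads over all peaks. Values are given as CPM, the reads in a peak relative to the library's reads over all peaks, after TMM scaling, which adjusts the library totals for composition. The TMM factors of the 3 unstimulated libraries, 1.04 to 1.24, stood above most of the other 15 (0.896 to 1.05), so that using plain totals lowered the median of all peaks against unstimulated cells by between 0.16 and 0.27 on the log2 scale and moved it by at most 0.073 between the other groups. All 10 macrophage genes checked (Csf1r, Spi1, Cd68 and others) had a promoter peak, with summed counts of 213 to 321 CPM in unstimulated cells and 308 to 420 CPM in the other groups. Peaks over the targeted gene, Il10, were still counted in every library (15.2 to 33.8 CPM in sum over 4 peaks), and such reads do not check the knockout. Of 8 T cell genes 3 had one, and Cd3e, Cd3d, Cd3g, Cd4 and Cd8a had none. Of 6 NK cell genes 3 had one, and Ncr1, Gzma and Prf1 had none. Neutrophil genes (4 of 5, without Ly6g) and dendritic cell genes (3 of 4, without Cd209a) also had promoter peaks. The dendritic cell sums were 29.4 to 41.8 CPM in unstimulated cells, 43.0 to 55.5 with (+)-JQ1, 45.02 to 45.6 with IL-10, 43.1 to 48.1 with LPS, 35.8 to 48.8 with LPS + (+)-JQ1 and 37.2 to 44.5 with LPS + IL-10.

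**Figure D1:**
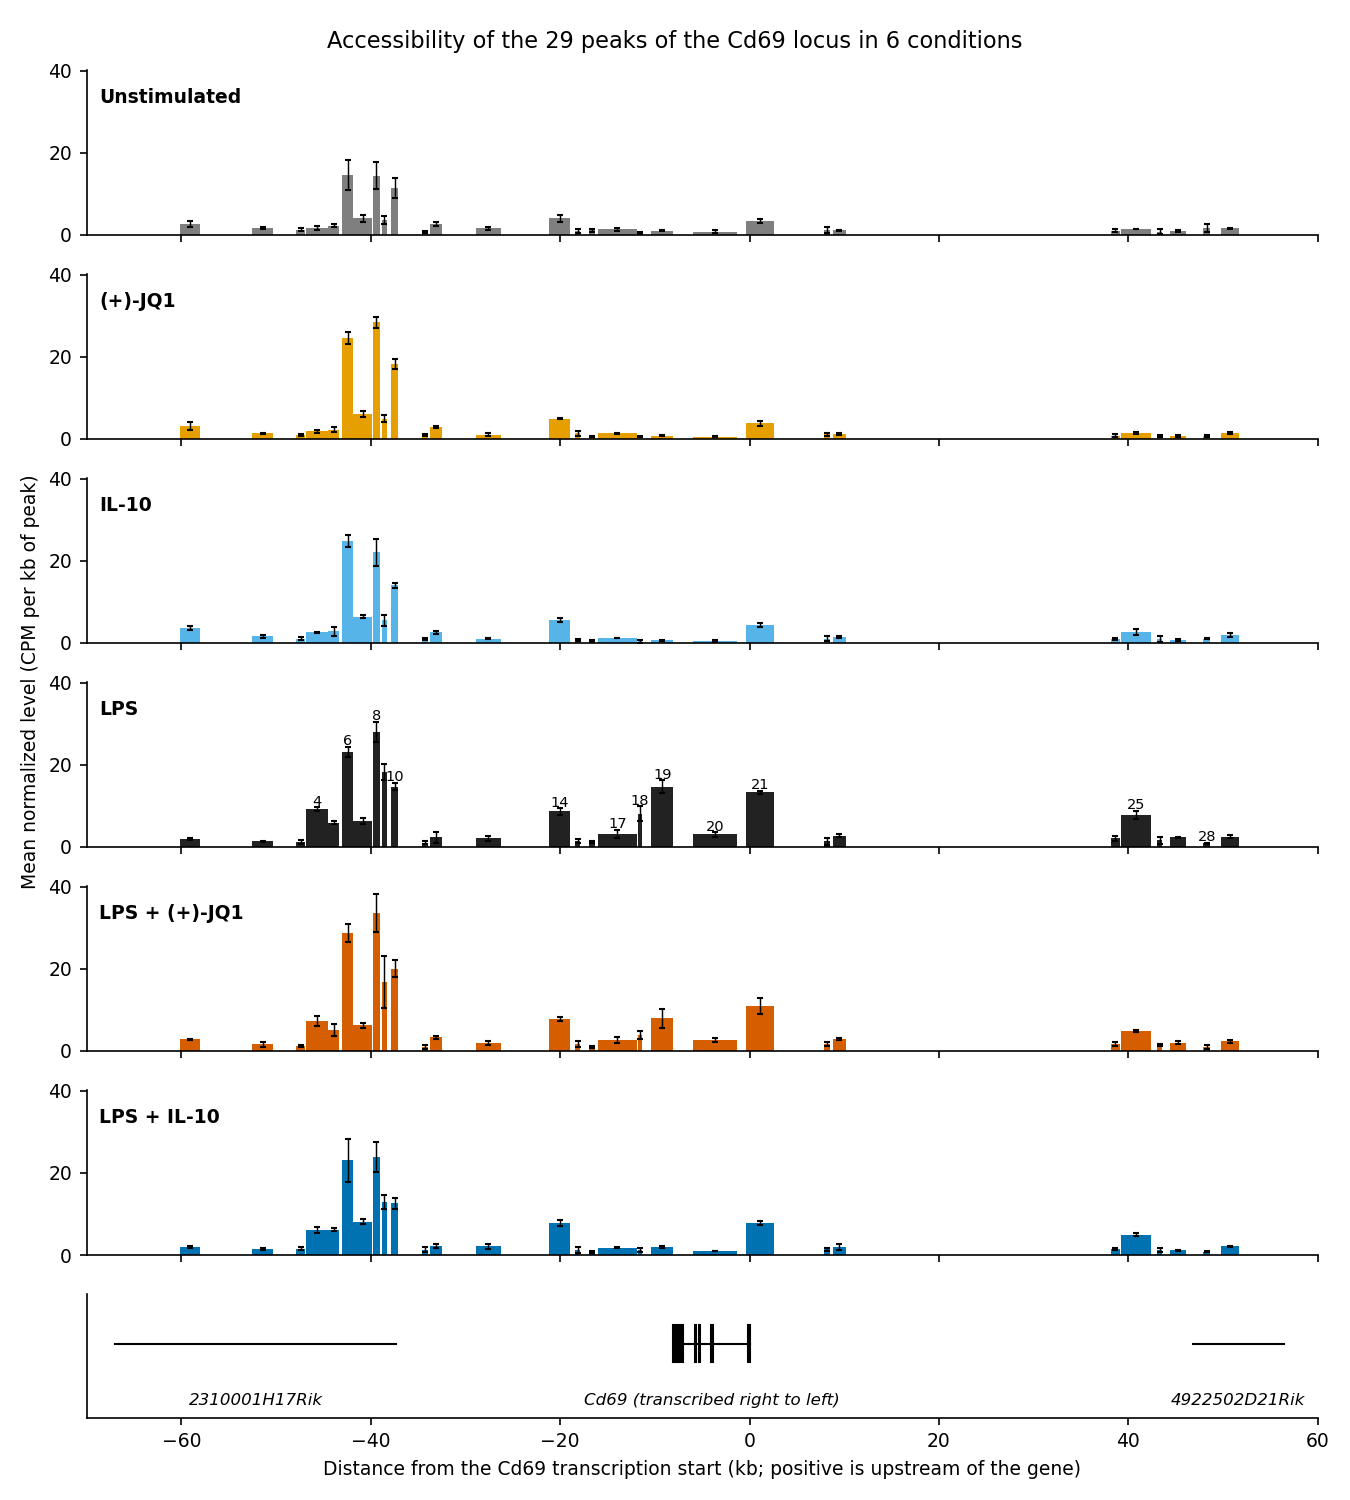
Mean level of each of the 29 peaks in CPM per kb of peak (bars, width to scale; error bars, SD of 3 libraries) against the distance of the peak from the Cd69 start in kb, by condition, with the gene models at the bottom and the numbers of 12 peaks above the LPS panel. Peaks 4, 9, 18, 19, 21 and 25 were lower without LPS and stood out with LPS, while peak 20 reached 3.05 CPM per kb with LPS. In LPS + IL-10 peaks 18 to 20 were low, while peaks 6 and 8 were not.

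Without stimulation the locus was accessible mainly over 2310001H17Rik. There the levels were highest at peaks 6 (14.6 ± 3.71 CPM per kb, SD, n = 3), 8 (14.4 ± 3.24) and 10 (11.4 ± 2.43), the last of which covers the start of that gene. The Cd69 promoter, peak 21, was at 3.31 ± 0.55 CPM per kb, the gene body, peak 20, at 0.795 ± 0.30, and peak 19 at 0.981 ± 0.16. With LPS peak 19 reached 14.7 ± 1.52 CPM per kb and the promoter 13.3 ± 0.33, against 23.1 ± 1.27 at peak 6. Summed over the 29 peaks, the locus held 117 ± 10.5 CPM in unstimulated cells, 148 ± 3.50 with (+)-JQ1, 153 ± 6.67 with IL-10, 295 ± 14.8 with LPS, 266 ± 36.6 with LPS + (+)-JQ1 and 203 ± 16.4 with LPS + IL-10. Peaks 18 to 20 made up 5.46% ± 1.70 of the counts of the locus in unstimulated cells, 3.01% ± 0.47 with (+)-JQ1 and 2.64% ± 0.57 with IL-10. With LPS they made up 18.02% ± 1.11, with LPS + (+)-JQ1 12.5% ± 1.23 and with LPS + IL-10 4.80% ± 0.26. These peaks had the largest falls of the 29 in LPS + IL-10 against LPS, so that the shares are a description.

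LPS raised the accessibility of the Cd69 locus on both sides of the gene. Against unstimulated cells 17 of the 29 peaks were higher and 1 was lower at an FDR under 0.05 and a change of more than 0.5 on the log2 scale (edgeR quasi-likelihood test), while 11.7% of all 194230 tested peaks were higher and 10.2% lower by the same rule. The median change was 0.95 over the 29 peaks and -0.03 over all peaks. The LPS libraries entered the choice of the locus, so that these counts and the LPS values below are not independent of it. All 3 peaks over Cd69 rose, as did 6 of 10 over 2310001H17Rik, 3 of 8 between the genes, 4 of 6 intergenic peaks upstream and 1 of 2 over 4922502D21Rik.

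The strongest rise among the peaks chosen by the naming rule was at peak 19, 9.2 kb downstream of the Cd69 start. It held 2.48, 1.87 and 2.58 CPM in the unstimulated libraries (replicates 1, 2 and 3), and 35.9, 30.6 and 37.3 CPM after LPS. All 3 LPS libraries lay above all unstimulated ones, also where both libraries of a replicate number were run on the same sequencing lane (replicates 1 and 3). The means were 2.31 ± 0.38 and 34.6 ± 3.57 CPM (log2 fold-change 3.91, SE 0.18, adjusted p = 3.25e-36, edgeR). Peak 19 also has the largest fall in LPS + IL-10 against LPS among the named peaks. Its p-value is therefore not independent of the choice. Peak 18, a 519 bp peak 11.6 kb downstream of the start that was singled out after its values were seen, rose from 4, 7 and 2 reads to 69, 97 and 78 reads (log2 fold-change 4.02, SE 0.41).

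The promoter and the gene body rose less than their neighbour at the 3′ end. Peak 21 went from 7.83, 10.0 and 11.0 CPM to 38.8, 37.4 and 39.2 CPM (log2 fold-change 2.00, SE 0.15, adjusted p = 4.09e-22, edgeR), and peak 20 from 5.35, 3.19 and 2.69 to 12.9, 12.9 and 17.3 CPM (1.96, SE 0.19). In both, the groups did not overlap. Among the distant peaks, peak 25, 40.8 kb upstream, rose from 4.48, 4.45 and 4.71 to 21.3, 27.5 and 24.3 CPM (2.42, SE 0.16), and peak 4, in an intron of 2310001H17Rik, from 3.48, 3.24 and 5.15 to 19.9, 21.6 and 21.4 CPM (2.40, SE 0.16).

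Over 2310001H17Rik, peaks 6, 7 and 8 rose by 0.66, 0.68 and 0.95 on the log2 scale, while peak 10, over the start of the gene, differed by 0.36 (95% interval 0.06 to 0.66) and did not pass. Peaks 14 and 17, between the genes, rose by 1.11 and 1.20. The other peaks that rose, 5, 9, 23, 24, 27 and 29, did so by between 0.69 and 2.30, and the 11 peaks called in neither direction differed by between -0.82 and 1.11. Peak 1, the most distant on the downstream side, was lower after LPS (-0.55, SE 0.19, adjusted p = 0.0266, edgeR), a call that held in 4 of 9 fits without single libraries or replicate numbers. Peaks 6 and 7 no longer passed with plain totals (0.45 and 0.44) or loess offsets (0.33 and 0.46), and with plain totals 13 peaks were higher and 2 lower.

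CD69 is known best from lymphocytes, and the promoter counts of T cell and NK cell genes are therefore given by group. The summed promoter counts of the 3 T cell genes with a peak (Cd247, Lck and Tcf7) were 43.2 to 53.8 CPM in unstimulated cells, 60.03 to 70.5 with LPS, 56.5 to 57.1 with LPS + (+)-JQ1 and 53.7 to 59.2 with LPS + IL-10. Those of the 3 NK cell genes (Klrb1c, Klrd1 and Eomes, the first 2 of which lie in the same gene complex as Cd69) were 23.96 to 27.2, 29.5 to 34.8, 24.5 to 29.5 and 25.0 to 26.7 CPM in the same order. With (+)-JQ1 alone and IL-10 alone the T cell sums were 49.7 to 58.4 and 48.2 to 53.2 CPM, and the NK cell sums 22.7 to 25.6 and 23.1 to 25.3 CPM. Whether other cells contributed to the signal at Cd69 was not tested, and in bulk cells more open cells and more openness per cell cannot be told apart.

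**Figure D2:**
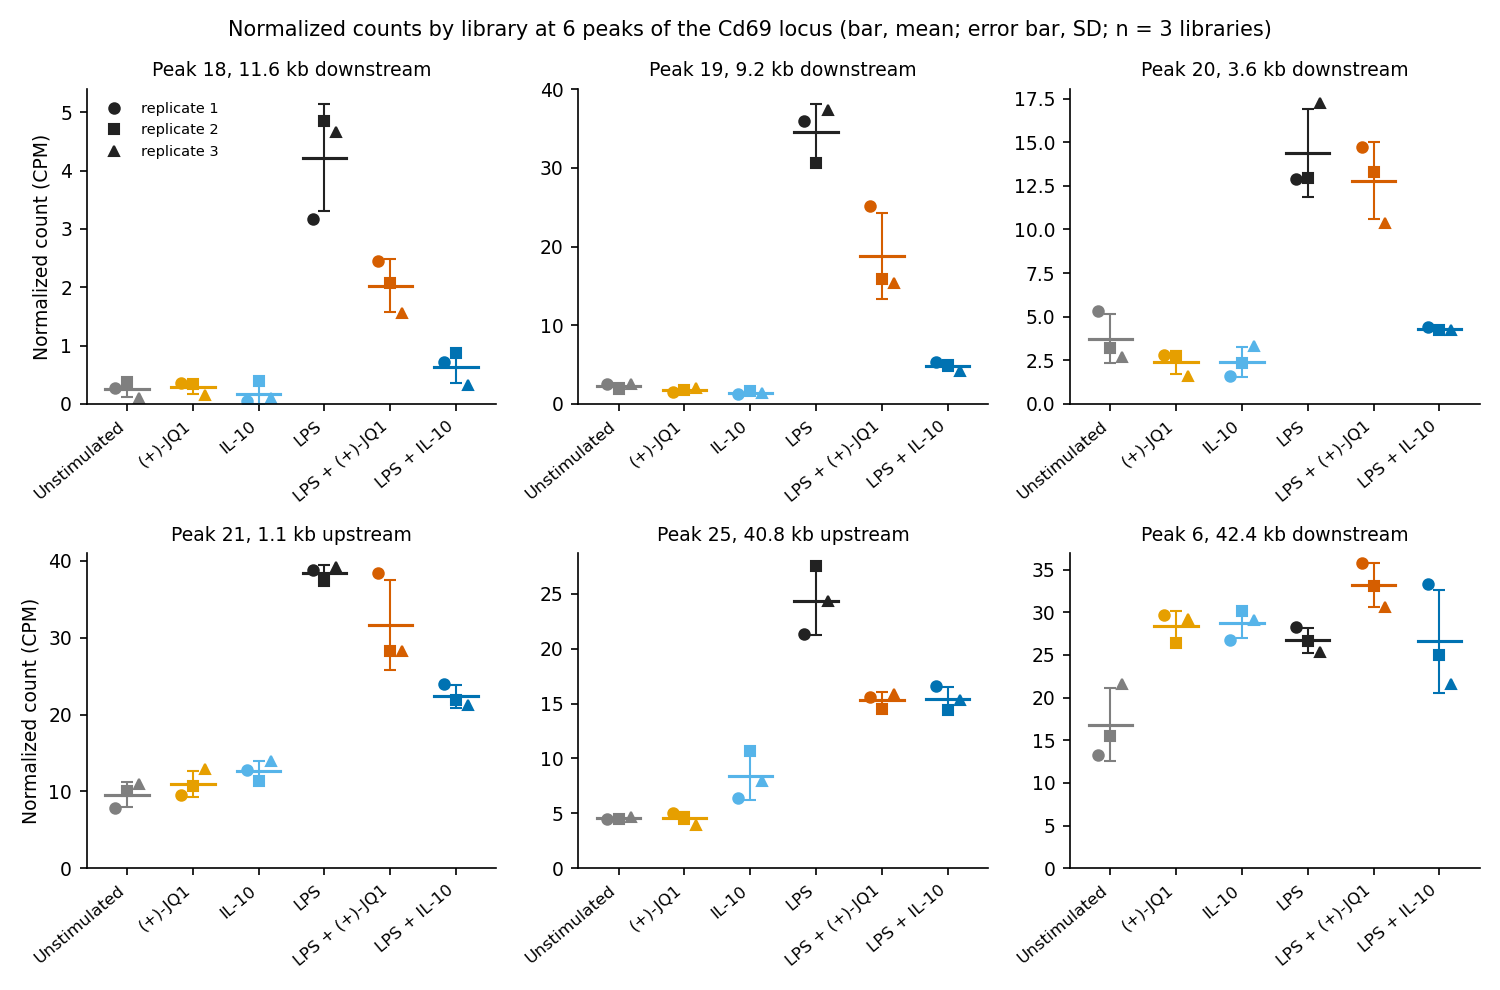
Normalized count in CPM (vertical axis) in each of the 18 libraries at peaks 18, 19, 20, 21, 25 and 6, by condition, with 1 symbol shape per replicate number, the mean as a bar and the SD as an error bar that is not drawn below 0. At peak 19 the LPS libraries sit between 30.6 and 37.3 CPM, those of LPS + (+)-JQ1 between 15.4 and 25.1 and those of LPS + IL-10 between 4.18 and 5.33.

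With IL-10 given before LPS, the gene body of Cd69 and the peaks at its 3′ end were far less accessible than with LPS. Since the locus was picked on this comparison, its values are a description. At peak 19 the LPS + IL-10 libraries held 5.33, 4.92 and 4.18 CPM, a log2 difference from LPS of -2.85 (SE 0.16). At peak 20 they held 4.42, 4.23 and 4.23 CPM (-1.74, SE 0.18), and at peak 18 they held 14, 15 and 7 reads (-2.75, SE 0.34). The promoter kept more of its signal, with 24.03, 21.9 and 21.2 CPM (-0.78, SE 0.14). The summed promoter counts of neutrophil genes were 47.0 to 54.7 CPM with LPS + IL-10, 40.5 to 45.9 with LPS, 38.04 to 43.4 with LPS + (+)-JQ1, 42.8 to 48.5 with IL-10, 33.3 to 37.2 with (+)-JQ1 and 29.04 to 36.7 in unstimulated cells. These sums were thus higher in every LPS + IL-10 library than in any LPS library, but the single peaks did not all follow. Of the 6 neutrophil promoter peaks, 0 were higher and 1 was lower by more than 0.5 on the log2 scale, without a test. The median difference was 0.26. The largest of these peaks, over Elane, held 19.3 to 36.7 CPM across all libraries. The part of neutrophil genes in the values at Cd69 was not tested.

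Of the 29 peaks, 11 were more than 0.5 lower on the log2 scale with LPS + IL-10 than with LPS. Of all tested peaks 14.4% were more than 0.5 lower, with no test in either count. The 11 took in all 3 peaks over Cd69, 3 of 8 between the genes, 4 of 6 intergenic upstream peaks, 1 of 10 over 2310001H17Rik and 0 of 2 over 4922502D21Rik. Apart from peaks 18 to 21, these differences lay between -0.94 (peak 27) and -0.55 (peak 23). The peaks over 2310001H17Rik summed to 119 ± 0.89 CPM with LPS and 108 ± 12.3 with LPS + IL-10. Over Cd69 the sums were 87.4 ± 6.46 and 31.5 ± 2.11 CPM. Of these, peak 19, whose edge just reaches the gene, held 34.6 ± 3.57 and 4.81 ± 0.58 CPM. Peak 7, an exonic peak of 2310001H17Rik, had the highest difference of the 29 (0.35, SE 0.14), with 10.9, 12.9 and 13.5 CPM in LPS and 15.3, 17.3 and 14.8 CPM in LPS + IL-10.

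Between LPS and LPS + IL-10 the peaks at the 2 edges of the window were low or little changed. Just inside, peak 1 was at 4.03 ± 0.50 CPM with LPS and 4.34 ± 0.41 with LPS + IL-10, and peak 29 at 4.95 ± 0.79 and 4.22 ± 0.29. Just outside, the next peak on the downstream side (chr6:129164222-129164811) was at 0.761 ± 0.24 and 0.583 ± 0.20 CPM, and the next on the upstream side (chr6:129279225-129279856) at 1.25 ± 0.089 and 1.15 ± 0.40.

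(+)-JQ1 given before LPS lowered peaks 18 and 19, next to the 3′ end of Cd69, and peak 25. Against LPS, LPS + (+)-JQ1 was lower at 3 of the 29 peaks and higher at 1, against 3.49% and 1.74% of all tested peaks (edgeR). The LPS libraries entered the choice of the locus, and high values in them favour a fall in any group set against them. The counts and p-values of this comparison are therefore not independent of that choice. Without replicate 2 of all groups 1 peak was called. Peak 19 held 25.1, 15.9 and 15.4 CPM, below each LPS library, a fall of 0.90 on the log2 scale (SE 0.14, adjusted p = 1.41e-06, edgeR). Replicate 1 stood above the other two. The fall at peak 19 was called in all 19 alternative fits of this comparison, with log2 fold-changes between -1.14 and -0.71 when libraries were left out.

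Peak 25 fell by 0.67 on the log2 scale (SE 0.14), with 15.6, 14.5 and 15.9 CPM, and did not pass without replicate 2 (-0.53, adjusted p = 0.14, edgeR). Peak 18, with 32, 38 and 40 reads, fell by 1.08 (SE 0.30, adjusted p = 0.0134, edgeR). It was not called in 6 of 9 fits that left libraries out. Peak 1, named after its values were seen, was higher with 6.06, 6.06 and 6.24 CPM against 4.23, 4.39 and 3.46 in LPS (0.60, SE 0.19, adjusted p = 0.0422, edgeR), and passed in none of the 9 fits that left libraries out. The promoter and the gene body did not pass. Their differences were -0.29 (95% interval -0.56 to -0.02) at peak 21, with 38.4, 28.3 and 28.2 CPM, and -0.17 (-0.51 to 0.16) at peak 20, with 14.7, 13.3 and 10.4 CPM. Over the 25 peaks that were not called the differences lay between -0.38 and 0.55.

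**Figure D3:**
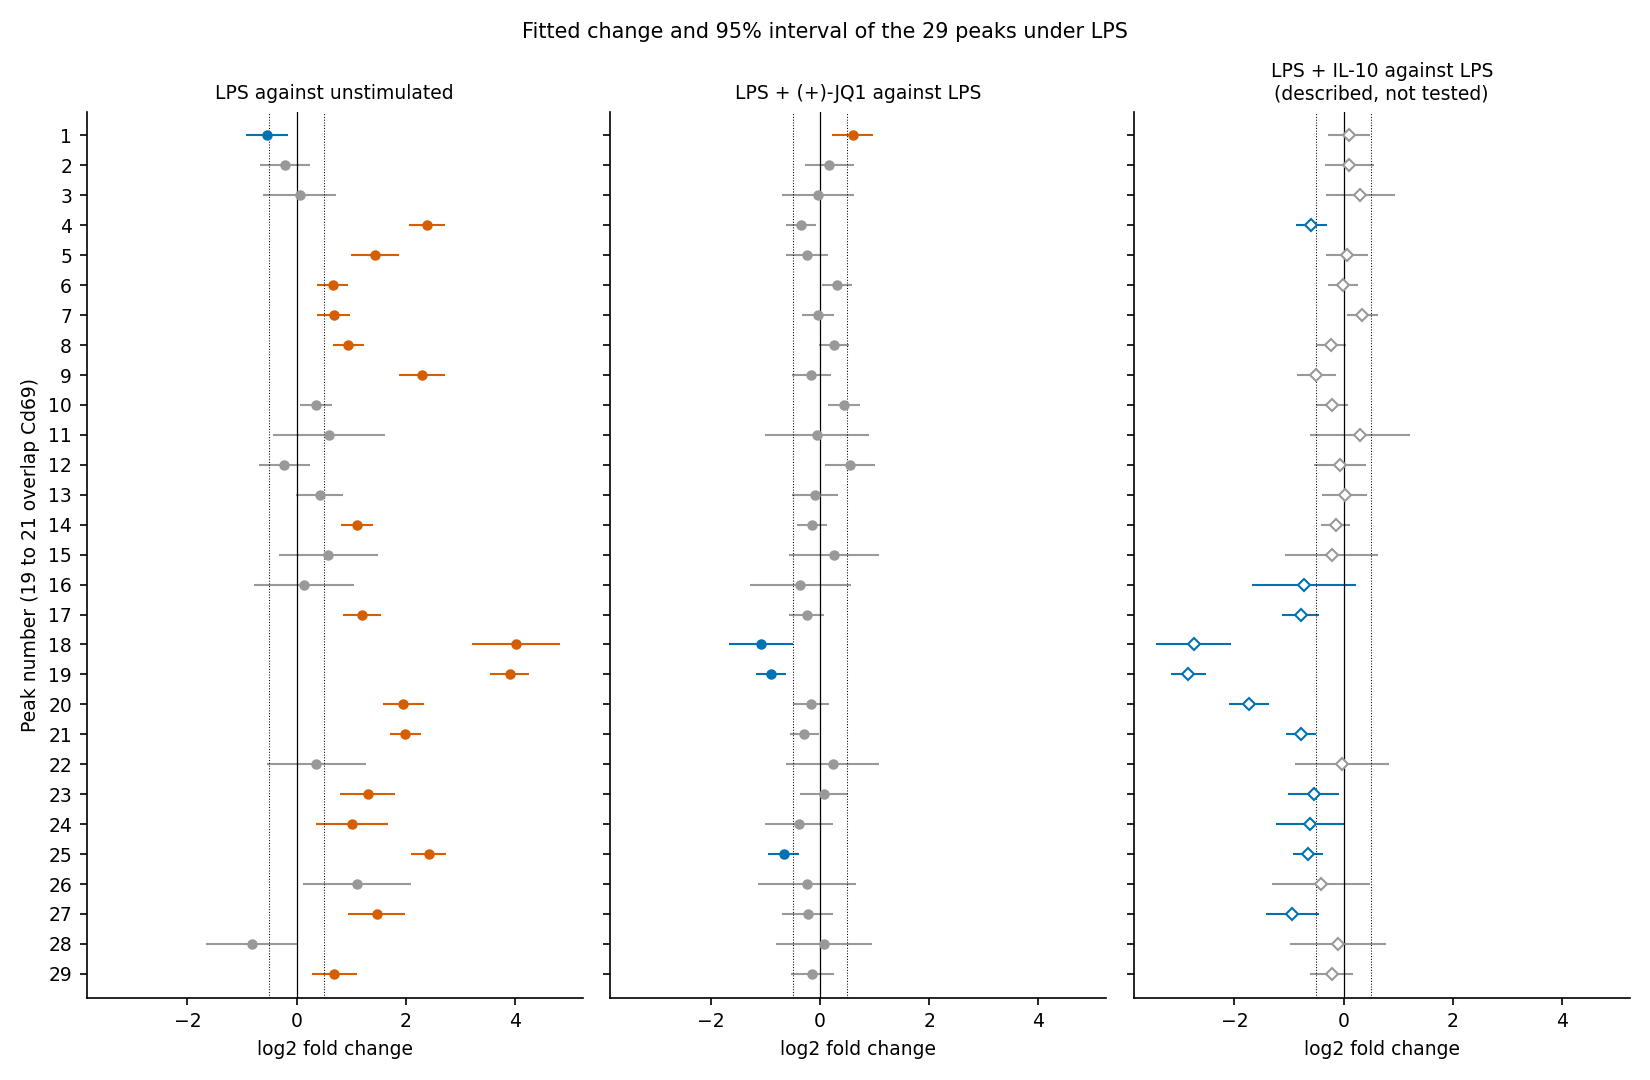
Fitted log2 fold change (horizontal axis; lines, 95% interval) of each of the 29 peaks (vertical axis, peak number) for LPS against unstimulated, LPS + (+)-JQ1 against LPS and LPS + IL-10 against LPS; orange and blue mark higher and lower calls, or in the last panel, which has open symbols and no test, changes past the dotted lines at 0.5 in size. In the last panel peaks 18 to 20 stand apart, between -2.85 and -1.74, while (+)-JQ1 moved the 3 peaks called lower by between -1.08 and -0.67.

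The 2 treatments under LPS were also set side by side. The locus was picked for low values in the LPS + IL-10 libraries, so that these differences and counts are a description and support nothing further. By the call rule LPS + IL-10 was lower than LPS + (+)-JQ1 at 5 of the 29 peaks, where 3.43% of all tested peaks were lower. Without replicate 2 the number of peaks called in either direction was 3, and without replicate 1 of LPS + IL-10 it was 8. The 5 were peaks 19 (-1.95, SE 0.16), 18 (-1.67), 20 (-1.56), 10 (-0.66) and 17 (-0.54). The promoter differed by -0.49 (SE 0.14), short of the threshold on size. At peak 25 the treatments gave 15.3 ± 0.71 and 15.4 ± 1.10 CPM, a difference of 0.01 with a 95% interval of -0.27 to 0.30.

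LPS still raised peak 19 in the presence of either treatment. The LPS + IL-10 libraries entered the choice of the locus, so that the counts and p-values that use them are not independent of it. LPS + IL-10 was higher at peak 19 than IL-10 alone (1.73, SE 0.21, adjusted p = 1.08e-10, edgeR) and than unstimulated cells (1.06, SE 0.20). There LPS + (+)-JQ1 was higher than (+)-JQ1 alone (3.37, SE 0.19). Across the locus 11 peaks were higher and 1 lower in LPS + IL-10 than in IL-10 alone (8.93% and 6.47% of all tested peaks), and 14 were higher in LPS + (+)-JQ1 than in (+)-JQ1 alone (5.69%). Against unstimulated cells 11 peaks were higher in LPS + IL-10 (10.5% of all) and 17 in LPS + (+)-JQ1 (10% of all). Peak 20 in LPS + IL-10 was not distinguished from unstimulated cells (0.22, 95% interval -0.19 to 0.63), while it was higher than in IL-10 alone (0.81, SE 0.21), a call that was lost without replicate 1 (0.57).

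The order of the 6 conditions at peak 19 was LPS, LPS + (+)-JQ1, LPS + IL-10, unstimulated, (+)-JQ1 and IL-10. The libraries of each of the first 3 lay above all those of the next, where the steps into LPS + IL-10 are a description. Unstimulated cells (2.31 ± 0.38 CPM) and (+)-JQ1 (1.79 ± 0.22) did not pass (-0.36, 95% interval -0.84 to 0.12), and the libraries of (+)-JQ1 and IL-10 (1.45 ± 0.21) overlapped. At the promoter the order was the same with LPS and reversed without it. There the libraries of (+)-JQ1 (11.0 ± 1.72 CPM) overlapped those of IL-10 (12.7 ± 1.29) and of unstimulated cells (9.60 ± 1.60).

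The share of the LPS gain that remained under each treatment was taken from the group means, as the treated level minus the unstimulated level over the LPS level minus the unstimulated level. Over the 17 peaks that rose with LPS the median share was 77.7% with (+)-JQ1 and 54.9% with IL-10. A rise with the treatment alone also counts as gain kept, since the base is unstimulated cells. Summed over the 10 peaks of 2310001H17Rik, (+)-JQ1 alone and IL-10 alone stood at 59.4% and 54.3% of the LPS gain. Over Cd69 they stood at -0.67% and 1.28%. Peak 19 kept 51.1% and 7.76%, peak 18 kept 44.7% and 9.57%, and peak 20 kept 85.3% and 5.18%. The promoter kept 76.4% and 44.3%, and peak 25 kept 54.3% and 54.9%. Taken by replicate number, peak 19 kept 67.6%, 48.8% and 37.0% with (+)-JQ1 and 8.54%, 10.7% and 4.62% with IL-10. These shares follow from the choice of the locus and of the risen peaks and carry no test.

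**Figure D4:**
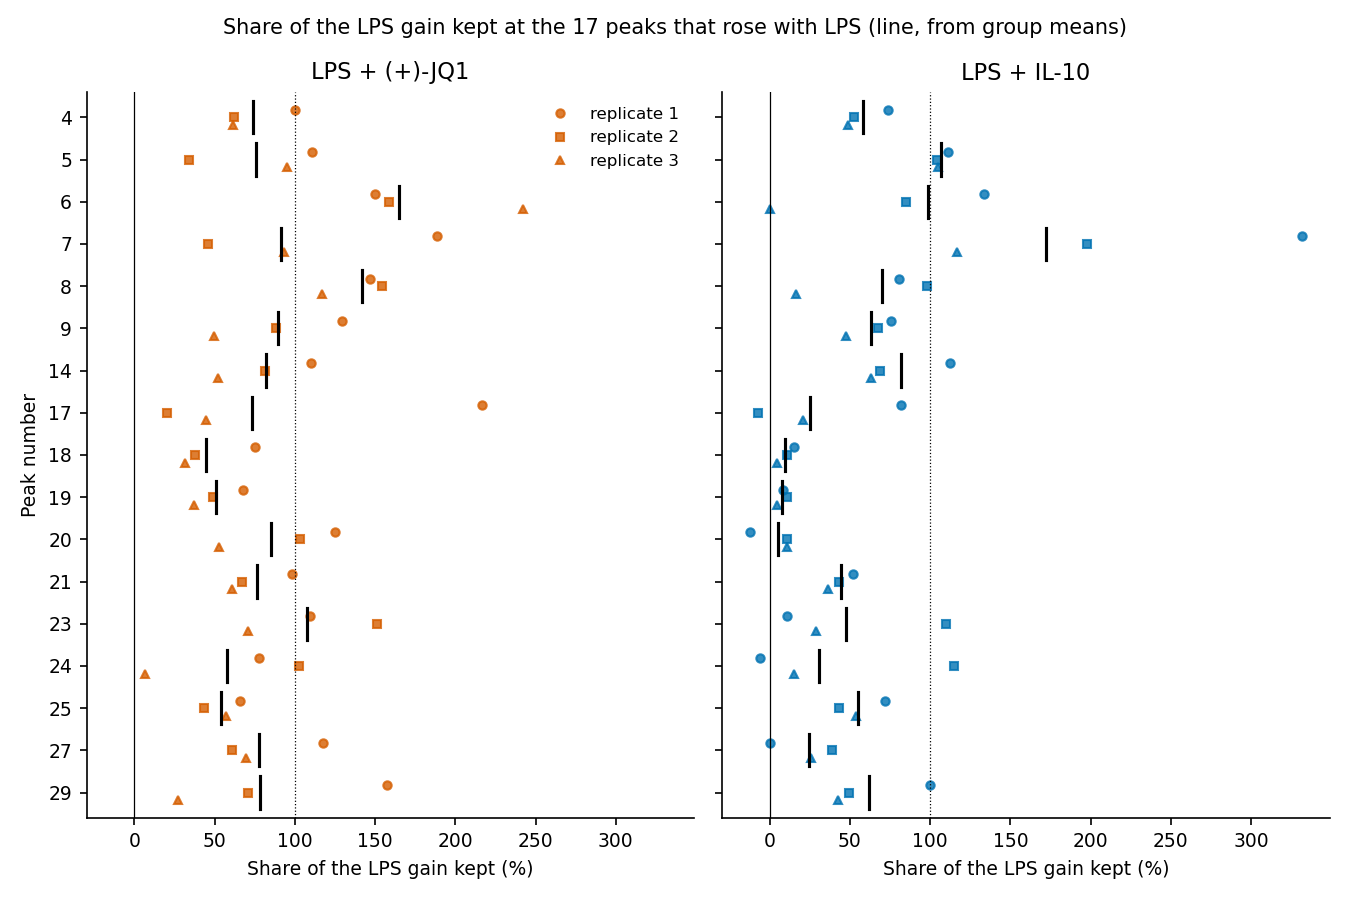
Share of the LPS gain kept, in percent (horizontal axis; dotted line, 100), for the 17 peaks that rose with LPS (vertical axis, peak number), by replicate number (symbols) and from group means (black lines), with LPS + (+)-JQ1 on the left and LPS + IL-10 on the right. Peaks 18 to 20 kept between 5.18% and 9.57% with IL-10 by the group means, and between 44.7% and 85.3% with (+)-JQ1.

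Without LPS, most of the peaks called with (+)-JQ1 or IL-10 lay over 2310001H17Rik and not over Cd69. These comparisons share the unstimulated libraries but use none of those on which the locus was picked. With (+)-JQ1 alone 4 of the 29 peaks were higher and 2 lower, against 7.85% and 3.15% of all tested peaks (edgeR). With IL-10 alone 5 were higher, against 5.16% higher among all peaks. With (+)-JQ1 the higher ones were peaks 6, 7, 8 and 10, all over 2310001H17Rik, and with IL-10 they were peaks 4, 6, 7 and 8, over the same gene, and peak 25.

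Peak 8, in an intron of 2310001H17Rik, rose most with (+)-JQ1, from 9.77, 10.4 and 14.6 CPM to 22.3, 24.02 and 22.1 CPM (log2 fold-change 0.97, SE 0.15, adjusted p = 6.19e-07, edgeR), and it was called in all 19 alternative fits. Peak 6 rose from 13.3, 15.5 and 21.6 CPM to 29.6, 26.4 and 29.2 CPM with (+)-JQ1 (0.75, SE 0.15) and to 26.8, 30.2 and 29.1 CPM with IL-10 (0.77, SE 0.14). Peak 25 was at 4.55 ± 0.14 CPM in unstimulated cells and 4.55 ± 0.55 with (+)-JQ1, a difference of -0.00 with a 95% interval of -0.37 to 0.36. It rose with IL-10 to 6.44, 10.7 and 7.99 CPM (0.88, SE 0.17, adjusted p = 0.000145, edgeR), though not past the threshold without replicate 2 (0.65, adjusted p = 0.12, edgeR).

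Over Cd69 itself 1 peak was called with (+)-JQ1 alone and 0 with IL-10 alone. The promoter differed from unstimulated cells by 0.19 with (+)-JQ1 (95% interval -0.11 to 0.50), a sign that turned with plain totals (-0.20), and by 0.40 with IL-10 (0.10 to 0.70), and neither passed. Peak 20 fell by 0.65 on the log2 scale with (+)-JQ1 (SE 0.23, adjusted p = 0.0492, edgeR), to 2.80, 2.73 and 1.62 CPM, and was not called in 6 of 9 fits without single libraries or replicate numbers. With IL-10 it was at 1.62, 2.33 and 3.34 CPM (-0.59, 95% interval -1.03 to -0.15, not called). Peak 28, in an intron of 4922502D21Rik, fell from 28, 24 and 9 reads to 5, 9 and 7 reads with (+)-JQ1 (-1.50, SE 0.46, adjusted p = 0.0165, edgeR), and was called in 3 of the 9 fits without single libraries or replicate numbers.

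The counts without LPS depended on the scaling of the unstimulated libraries. With plain totals 1 peak was higher and 4 were lower with (+)-JQ1, and 2 were higher and 3 lower with IL-10. With loess offsets these were 1 and 0 for (+)-JQ1 and 1 and 1 for IL-10. Without replicate 2, 3 peaks were called with (+)-JQ1 and 1 with IL-10, and without replicate 3 of the unstimulated cells 9 were called with IL-10.

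**Figure D5:**
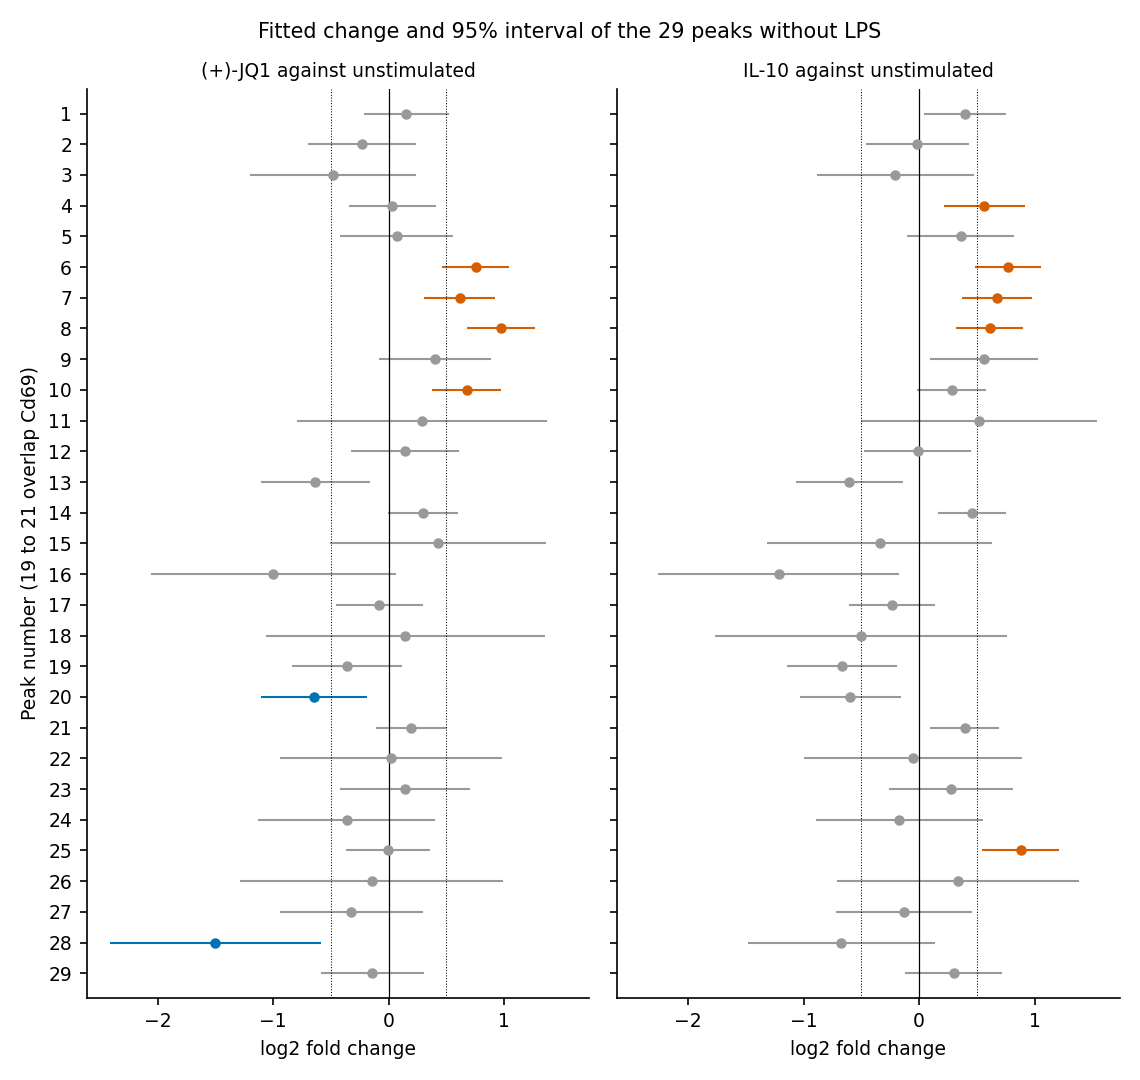
Fitted log2 fold change (horizontal axis; lines, 95% interval) of each of the 29 peaks (vertical axis, peak number) with (+)-JQ1 alone and with IL-10 alone against unstimulated cells, with higher calls in orange, lower calls in blue and dotted lines at 0.5 in size. The calls in orange lie at peaks 4 to 10, apart from peak 25 with IL-10.

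Whether (+)-JQ1 changed the size of the LPS response was asked with the interaction term. This term uses the LPS libraries, which entered the choice of the locus, and is not independent of that choice. It was called at 1 of the 29 peaks, where 3.19% of all tested peaks had a lower response with (+)-JQ1 than without (edgeR), so that the single call is near the background share and is no result about the locus. It was peak 8, which rose by 0.95 on the log2 scale with LPS in untreated cells and differed by 0.24 (SE 0.14) with LPS in (+)-JQ1-treated cells (interaction -0.71, SE 0.20, adjusted p = 0.0288, edgeR), its level being 22.8 ± 1.07 CPM with (+)-JQ1, 22.5 ± 1.97 with LPS and 27.1 ± 3.67 with both. It was not called with plain totals (-0.45), with loess offsets (-0.37) or in 9 of 15 fits without single libraries or replicate numbers. At peak 19 the interaction was -0.54 (95% interval -1.10 to 0.02, adjusted p = 0.329, edgeR). For IL-10 the same term, described only, was -2.18 (SE 0.29) at peak 19, -1.14 (SE 0.29) at peak 20 and -1.18 (SE 0.20) at the promoter.

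Among the other members with a mean of at least 2 CPM, the pattern over the 6 condition means was most like that of peak 19 at peaks 17 (Pearson r of log2 CPM 0.996), 20 (0.986), 27 (0.981), 23 (0.946) and 21 (0.944). Peaks 6, 7 and 10 had r of 0.33, 0.25 and 0.31. Of 88592 peaks elsewhere with a mean of at least 2 CPM, 1267 had an r above 0.95 with peak 19. The 5 highest lay 88.8 kb from the start of Itgb8 (chr12:120385907-120391001), over Pcnx (chr12:83063030-83064632), over Mrpl39 (chr16:84725664-84726835), over Nfkb1 (chr3:135272177-135275014) and 4.3 kb from the start of Gm17041 (chr9:107207893-107209008), each with an r of 0.998. The peak over Nfkb1, which encodes an NF-kappaB subunit, was at 6.67 ± 1.57 CPM in unstimulated cells, 17.9 ± 1.87 with LPS, 13.9 ± 2.00 with LPS + (+)-JQ1 and 8.32 ± 1.47 with LPS + IL-10. The r are over 6 points from shared libraries and carry no test.

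Lists of genes related to Cd69 were read at their promoter peaks, from 1000 bp before to 100 bp after an annotated start. Of 25 genes of C-type lectin-like receptors near Cd69, 16 had a promoter peak, and of these 22 peaks 7 were higher and 1 lower with LPS than without, against 11.7% and 10.2% of all tested peaks, with a median of 0.03 against -0.03 over all peaks. Olr1, a receptor for oxidized lipoprotein, rose by 1.43 (SE 0.18) and Klrk1, which encodes the activating receptor NKG2D, by 1.75 (SE 0.25) on the log2 scale. Klrk1 was also the 1 of the 22 called with LPS + (+)-JQ1 against LPS, where it was lower (-1.28, SE 0.24, adjusted p = 5.07e-05, edgeR), a count near the 3.49% of all tested peaks that were lower. Clec2d, the nearest gene of the list on the downstream side, rose by 1.08 (SE 0.14).

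Of 16 partners and signalling genes of CD69, 15 had a promoter peak, with 6 of 25 peaks higher and 1 lower with LPS (median 0.14), where 11.7% and 10.2% of all tested peaks were called. S1pr4, a sphingosine 1-phosphate receptor of leukocytes, rose by 0.85 (SE 0.18), and 1 of 2 peaks of S1pr3 fell by 0.84 on the log2 scale (SE 0.25). Slc7a5 and Slc3a2, which together form an amino acid transporter that associates with CD69, rose by 0.52 each, Slc3a2 at 1 of its 2 peaks. With plain totals 3 of the 25 peaks were called, and likewise 3 without replicate 2, without replicate 1 of LPS or without replicate 1 of the unstimulated cells. Against LPS, 2 of the 25 were lower with LPS + (+)-JQ1, at S1pr4 (-0.86) and Stat5a (-0.76), where 3.49% of all tested peaks were lower. S1pr1, the receptor that CD69 binds, differed by 0.01 (SE 0.14) with LPS and by 0.29 (SE 0.14) with LPS + (+)-JQ1 against LPS, and neither passed.

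Of 25 early activation genes, 23 had a promoter peak, with 14 of 39 peaks higher and 0 lower with LPS (median 0.39), against the same 11.7% and 10.2%. Cd40, which encodes a costimulatory receptor, had 3 promoter peaks that rose by 1.41 to 2.08, and Icam1, an adhesion molecule, rose by 1.51 (SE 0.14). Tnfaip3, a brake on NF-kappaB, had 3 of 4 that rose by 0.76 to 1.44. Against LPS, 2 of the 39 were lower with LPS + (+)-JQ1, 1 each at Cd40 (-0.72) and Cd86 (-0.73), near the background of 3.49%, a count that ran from 1 to 5 without single libraries or replicate numbers. The promoter of Cd69 rose by 2.00 with LPS, and its difference of -0.29 with LPS + (+)-JQ1 did not pass.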

How the data were processed

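ATAC-seq reads of 18 libraries, 6 groups of 3 each from 3 mice, had been processed by the authors with the PEPATAC pipeline, with Bowtie2 for alignment to mm9, MACS2 for peak calling in each library and ChIPseeker for annotation. The deposited file used here held raw read counts over the union of the peaks of all libraries, so that a peak can be wider than the open site in 1 condition. Totals ranged from 12020526 to 25908198 counts. Columns of the table that match no sample (6) were not used.

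The 29 peaks were tested within the whole table (edgeR 4.0.16 in R 4.3.3, TMM scaling, quasi-likelihood F test, all 18 libraries, 1 mean per group, 194230 of 194284 peaks kept by filterByExpr), with Benjamini-Hochberg adjustment over all tested peaks. Calls needed an adjusted p under 0.05 together with a change of more than 0.5 on the log2 scale. SE was taken from the F statistic, and fits were tested on simulated data. The design text calls the samples matched, but no label names the mouse of a library, so that the shared replicate numbers may not mark the same mouse. The correlation of deviations from the group means averaged 0.0068 over 45 pairs of libraries with the same number and -0.0034 over 90 others. Replicates 1 and 3 were run on lanes 5 and 6. Of replicate 2, the libraries with LPS were run on lane 6 and the rest on lane 5. The design text calls the 3 replicates of a group biological. The result of 1 marker list is not reported here.

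Peaks named with values were those overlapping Cd69 or its 1000 bp upstream, up to 6 with the highest mean CPM, the 3 lowest and the 1 highest in LPS + IL-10 against LPS with a mean normalized count of at least 50, and those called with (+)-JQ1 or IL-10 alone. The locus, members, gene lists and motifs were chosen with earlier results of these data known. Alternatives were DESeq2 1.42.0 and its size factors, plain totals, loess offsets (limma 3.58.1), other filters, a replicate block, a lane term, fewer groups, separate promoter and distal tables, leaving out libraries, and an FDR of 0.01.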

Additional observations from a re-analysis of the deposited data

Results flagged for a closer look

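The effect of LPS at peak 8, in an intron of 2310001H17Rik, differed between cells with and without (+)-JQ1 by -0.71 on the log2 scale (SE 0.20, adjusted p = 0.0288, interaction term, edgeR). The LPS + (+)-JQ1 libraries held 31.2, 25.9 and 24.1 CPM and the (+)-JQ1 libraries 22.3, 24.02 and 22.1 CPM, against 24.3, 20.4 and 22.8 CPM with LPS and 9.77, 10.4 and 14.6 CPM in unstimulated cells. The difference was not called with plain totals (-0.45), with loess offsets (-0.37) or in 9 of 15 fits without single libraries or replicate numbers, and 1 call among 29 peaks is near the 3.19% of all tested peaks that were called in this direction. The unstimulated libraries were the 3 lowest of these 12. The LPS libraries entered the choice of the locus, so that the p-value of the interaction is not independent of it.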

How the results depend on the processing

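The depth of the small peaks, such as peak 18 with 2 to 7 reads per unstimulated library, limits what can be called at them. With the replicate block, which pairs libraries by replicate number, the 74 values of 13 peaks that were called, or that passed 0.5 in size in LPS + IL-10 against LPS, stayed so except peak 14 in LPS + IL-10 against IL-10 (0.50 against 0.50 at a threshold of 0.5), and (+)-JQ1 alone gave 7 calls against 6 without the block. Over all alternatives of these 74 values, 116 lost their call and 0 turned direction. The other 1353 kept their call or, in LPS + IL-10 against LPS, where nothing was called, stayed near the main value relative to its SE. Calls of LPS + (+)-JQ1 against LPS fell from 4 to 2 at an FDR of 0.01 and ran from 1 to 5 when libraries or replicate numbers were left out. Those of (+)-JQ1 against unstimulated fell from 6 to 1 with loess offsets and to 3 with promoter and distal tables fitted separately, and ran from 3 to 6 when libraries were left out. Those of IL-10 against unstimulated fell from 5 to 2 with loess offsets and ran from 1 to 9. Those of LPS + IL-10 against LPS + (+)-JQ1 (5) ran from 3 to 8. The interaction of LPS and (+)-JQ1, called at 1 peak, was called at 2 with DESeq2 size factors, at 3 with DESeq2, at 0 with total counts, loess offsets, only the groups compared or an FDR of 0.01, and at 0 to 6 when libraries were left out. The locus totals, in CPM, became 133 in unstimulated cells and 139 with (+)-JQ1 under total counts. Within 25 kb of the gene, over 12 peaks, they were 41.1 in unstimulated cells, 41.3 with (+)-JQ1 and 42.8 with IL-10. They were 138 with LPS, 109 with LPS + (+)-JQ1 and 69.5 with LPS + IL-10. A window of 100 kb held 60 peaks, with totals of 287 in unstimulated cells, 339 with (+)-JQ1 and 374 with IL-10. There they were 621 with LPS, 552 with LPS + (+)-JQ1 and 494 with LPS + IL-10, so that the rise with LPS did not end at the window. Over 18 libraries 0 of the 5 peaks most like peak 19 were the same. Over whole peaks the members with a match numbered 13 for AP-1, 17 for NF-kappaB, 8 for the interferon response element, 18 for STAT, 24 for PU.1 and 15 for C/EBP. Among the gene lists, calls at CD69 partners with LPS fell from 7 to 3 with total counts, loess offsets or separate tables, and early activation genes in LPS + (+)-JQ1 against LPS rose from 2 to 4 with only the groups compared or separate tables. The cause of these changes was not tested.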
